A study of Mus musculus with 56 samples.

Results

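Liver ribosome footprints labelled 20 months were compared with those labelled 3 months, using 6 of the 56 libraries of a mouse series, 3 per age. The members were taken by their labels alone: tissue liver, assay ribosome-bound RNA, and age 20 or 3 months. All mice were C57BL/6, an inbred laboratory strain, and the labels name no treatment, sex or transgene that would separate the groups. The series covers liver at 6 labelled ages from 1 to 32 months and kidney at 3 ages, each as footprints and as total RNA, with 3 animals per age except 2 at 32 months, so that libraries at 32 months, 3 per tissue and assay, share an animal. Kidney at 3 months, which is not compared here, also has more libraries per assay than the animals stated. The 12 liver footprint libraries of the other ages served to estimate the spread and as a reference for levels. A gene was retained only if its difference survived 2 further fits, one without the first 3-month library and one with another scaling of the libraries.

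A ribosome footprint is the stretch of mRNA that a translating ribosome shields from nuclease, so the number of footprints on a gene follows both how much of its mRNA is present and how densely ribosomes occupy it. Hepatocytes, which make up most of the liver mass, burn fatty acids in mitochondria and peroxisomes, store them as triglyceride in lipid droplets, and secrete most plasma proteins. Kupffer cells, the resident macrophages, line the sinusoids together with endothelial and stellate cells, and circulating leukocytes and platelets contribute RNA to any piece of whole liver. In such bulk tissue, fewer cells of a type and less RNA per cell cannot be told apart.

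The libraries held from 7985755 to 26921222 counts of footprints per library over the 6 compared. Albumin (Alb), made by hepatocytes, ranged from 30523 to 123575 CPM (counts scaled to a library total of 1000000) in the 18 liver libraries and from 9.23 to 126 CPM in kidney footprints. The kidney transcript Kap was at or under 1.15 CPM in liver, except 13.3 CPM in the first 1-month library, and at least 988 CPM in kidney footprints. In that 1-month library kidney tubule markers summed to 33.4 CPM, against at most 5.79 CPM in any other liver library, and the cause was not tested. The tissue label therefore held in all 18, but 2 transcripts that follow age did not run in the labelled order. H19, an imprinted RNA that is abundant in the young liver, averaged 0.203 CPM at 1 month, 1.4 ± 0.625 (SD, n = 3) at 3 months, 14.7 ± 6.57 at 11 months and 0.124 ± 0.11 at 20 months. Ighm, the IgM heavy chain, which accumulates with age in mouse tissues, ranged from 24.1 to 805 CPM at 3 months, from 35.6 to 116 CPM at 20 months and averaged 5.09 CPM at 11 months. Every age below is therefore the age on the label, taken from the age field, which gives 11 months where the sample titles give 10. The first 3-month library stood apart: its median correlation with the other liver footprint libraries was 0.918, against at least 0.959 for each of the others.

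Of 13608 genes with enough counts to test, 2558 (18.8%) differed between 20 and 3 months at a Benjamini-Hochberg adjusted p under 0.05 (edgeR quasi-likelihood test with TMM scaling, which sets libraries to a common level on the bulk of genes). Of these, 1014 were higher at 20 months (7.45% of genes tested) and 1544 were lower (11.3%). Scaling by total counts alone moved the median of all genes by −0.28 on the log2 scale and the split to 272 higher and 2517 lower, which is 9.75% higher against 39.6% in the first fit. Leaving out the first 3-month library reduced the calls to 475, of which 147 were higher and 328 lower. Without the third 3-month library 4132 genes were called. Without 20-month library 1, 2 or 3 the number was 1172, 370 or 1634. Genes called in the same direction in the first fit, without the first 3-month library, and with total-count scaling numbered 437 (3.21%), with 119 higher (0.874%) and 318 lower (2.34%) at 20 months. These 437 are called kept genes below, and each statement of a rise or fall refers to 20 relative to 3 months. Counts for a gene list stand beside these shares of all genes tested: 18.8% called, 7.45% higher, 11.3% lower and 3.21% kept. With the library left out and the scaling changed at once, 374 of the 437 were called. Every kept gene lost in that joint fit was one that rose, and the fit called 58 genes higher in all, beside 119 kept rises. Named genes that were not called there are marked below by their adjusted p in that joint fit. The 6 libraries fitted alone, without the spread of the other ages, called 15 genes, 10 higher and 5 lower, 9 of them kept. Among the 57 kept genes picked for naming, that fit called Onecut1, G0s2, Gprc5b and Vnn1, all rises, and no fall. The CPM of the 6 libraries did not overlap between the groups for 431 of the 437, and for 4131 (30.4%) of all genes tested. The largest rises and falls named below were picked with this as a condition. A lack of overlap in a kept gene is therefore a description and no separate support.

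**Figure D1:**
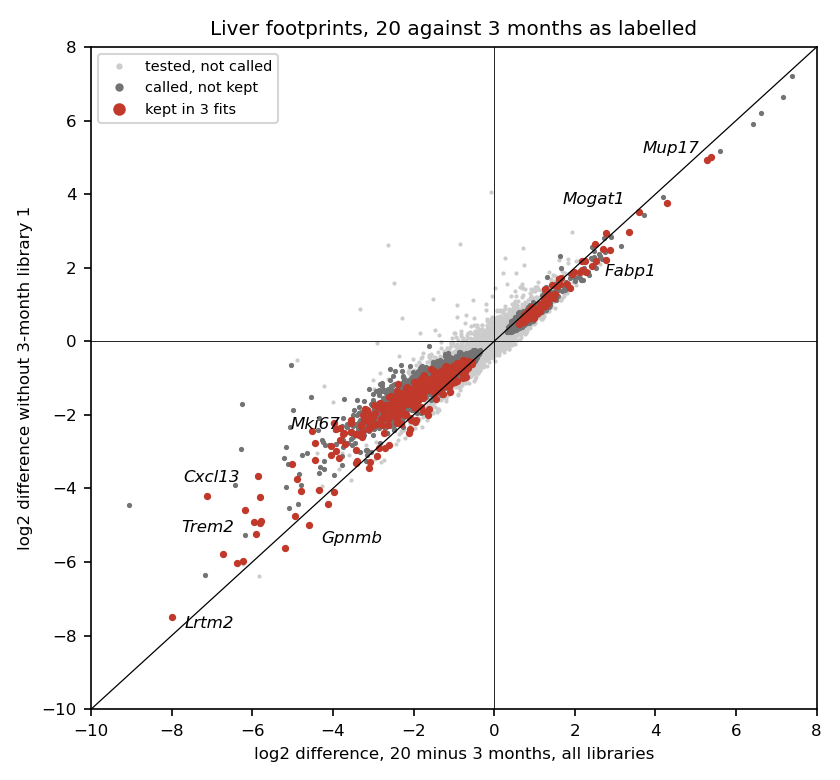
Each point is 1 of 13608 genes, with the log2 difference of 20 minus 3 months using all libraries (x axis) against the same without the first 3-month library (y axis); red marks the 437 kept genes, dark grey other called genes, light grey the rest, and the diagonal is equality. Most kept genes with a negative difference lie above the diagonal, nearer to 0, with a median of −2.13 on the x axis and −1.54 on the y axis.

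The kept genes that fell did so by more than the kept genes that rose. Their median log2 difference was −2.13 (−1.54 without the first 3-month library), with 288 of 318 at least 1 in size, while the kept genes that rose had a median of 1.00 (0.86 without it) and 60 of 119 at least 1. With total-count scaling the medians were −2.48 and 0.77. These sizes are descriptions, since the genes were selected on the same libraries. The first 3-month library held the highest CPM of its group in 289 of the 318 genes that fell, and the third 3-month library the lowest in 276. The second 20-month library was the lowest of its group in 243. In the genes that fell, the 3 libraries labelled 3 months were therefore in a near-constant order, with the third closest to the 20-month libraries. The order was looser in the 119 genes that rose. There the first 3-month library was the lowest of its group in 69 and the third in 32, and the second was the highest in 46 and the third in 49.

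Fatty acid oxidation had the highest share of genes called higher among the 44 lists. Of 30 tested genes of this list, 19 were called higher and 0 lower, 9 were kept, and the median log2 difference was 0.78 (0.65 without the first 3-month library), beside −0.02 over all genes tested. The summed level of the list was 7754 to 11071 CPM at 3 months and 14113 to 16808 CPM at 20 months, with no overlap. Kept genes included those for the transport of fatty acids into mitochondria (Cpt2, 0.91 on the log2 scale, adjusted p = 0.0503 without the second 20-month library), the β-oxidation steps and the handling of unsaturated chains (Decr1 0.94, Eci1 1.13, and Hadh 0.76, adjusted p = 0.0788 in the joint fit), the transfer of their electrons to the respiratory chain (Etfdh 0.79, adjusted p = 0.0676 in the joint fit), and ketone body formation (Bdh1 1.16). Hadha, Hadhb, Acadvl and Ehhadh were called higher in the first fit but were not kept.

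Acaa1b, a peroxisomal thiolase, had 179.8, 391 and 593 CPM at 3 months and 1639, 1563 and 1768 CPM at 20 months. All 3 libraries at 20 months exceeded the highest at 3 months, and the log2 difference of 2.28 ± 0.45 (SE, adjusted p = 0.00709) became 1.89 without the first 3-month library. Acaa1b has a near-identical neighbour, Acaa1a, so reads shared by both may be split between them. Vnn1, a pantetheinase and a known target of the fatty acid receptor PPARα, had 27.1, 30.9 and 24 CPM at 3 months and 88.5, 92.8 and 87.3 CPM at 20 months. The groups lay far apart and each was tight, with a log2 difference of 1.99 ± 0.35 (SE, adjusted p = 0.0055). Decr1, which reduces double bonds so that unsaturated fatty acids can be oxidised, had 106, 136 and 136 CPM at 3 months and 212, 181 and 224 CPM at 20 months. Its difference was 0.94 ± 0.16 (SE, adjusted p = 0.00533), again with no overlap. Eci1, an isomerase acting on the same chains, had 59.6, 82.1 and 83.8 CPM at 3 months and 143, 128 and 149 CPM at 20 months, a difference of 1.13 with no overlap.

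Fabp1, the abundant fatty acid binding protein of liver cytoplasm (chromosome 6, 71199879 to 71205034, GRCm38.p6), is outside that list and was among the 12 largest rises of genes above 5 CPM. It had 145, 220.5 and 418 CPM at 3 months and 821, 2117 and 892 CPM at 20 months. The 3-month libraries ran from low to intermediate and all stayed below the 20-month ones, with a log2 difference of 2.53 ± 0.45 (SE, adjusted p = 0.0055) and 2.17 without the first 3-month library. The 250 bases before its start (chr6:71199629-71199878, plus strand, RefSeq on GRCm38.p6) are printed because they were the only promoter among the 94 kept higher genes with one in the table that holds the paired half-site AGGNCANAGGNCA, the form of element that PPARα with its partner binds. Both strands were searched, and the capitals mark the match, on the minus strand and 67 bases before the start.
Fabp1: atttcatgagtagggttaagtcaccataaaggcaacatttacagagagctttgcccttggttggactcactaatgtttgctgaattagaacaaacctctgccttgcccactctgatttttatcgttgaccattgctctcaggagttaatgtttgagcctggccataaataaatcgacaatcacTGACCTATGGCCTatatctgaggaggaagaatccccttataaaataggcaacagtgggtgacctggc
The motif occurred in 1.06% of promoters of kept higher genes, in 0.394% of 254 promoters of kept lower genes, and in 0.338% of all 32851 promoters of the table. One match is a description of these letters only.

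Genes of lipid storage rose in part. Of 13 tested lipid droplet genes, 6 were called higher and 1 lower, 4 and 1 were kept, and the median was 0.97 (1.29 without the first 3-month library). Mogat1, an acyltransferase that makes diacylglycerol (chromosome 1, 78511060 to 78606964), had 0.533, 0.78 and 0.119 CPM at 3 months and 4.59, 4.93 and 5.38 CPM at 20 months. It was under 1 CPM in every 3-month library and above 4 CPM in every 20-month library, with a log2 difference of 3.59 ± 0.47 (SE, adjusted p = 0.00305). G0s2, an inhibitor of the triglyceride lipase ATGL, had 18.7, 18.6 and 25.7 CPM at 3 months and 134, 119 and 88.2 CPM at 20 months, a log2 difference of 2.69 ± 0.51 (SE, adjusted p = 0.00699). The groups did not overlap, and in the joint fit the difference was 2.36 (adjusted p = 0.0535). Plin2, which coats lipid droplets, had 323, 214 and 174 CPM at 3 months and 526, 484 and 357 CPM at 20 months, and Fitm1, which takes part in droplet formation, had 31.6, 47.4 and 38.1 CPM at 3 months and 99.2, 83 and 98.2 CPM at 20 months. Both rose with no overlap, by 1.27 and 1.5 on the log2 scale. Fabp4, a fatty acid binding protein of fat cells, macrophages and endothelium, fell in the same list (−1.37, adjusted p = 0.00781).

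The list of fatty acid and triglyceride synthesis had 5 of 20 genes called higher and 1 lower, with 0 kept, and a median of 0.70 (0.52 without the first 3-month library). Its 2 most abundant genes did not pass: Scd1, a desaturase, had 13203, 14926 and 8035 CPM at 3 months and 20435, 19936 and 19041 CPM at 20 months (adjusted p = 0.183), and Fasn, the fatty acid synthase, 1213, 843 and 1221 and 2038, 1787 and 2484 CPM (adjusted p = 0.177). Neither pair of groups overlapped, as for 30.4% of all genes tested. Cholesterol synthesis had 0 of 24 genes called. Sc5d, a late enzyme of that pathway, averaged 491 ± 125 CPM at 3 months and 611 ± 82.2 at 20 months (SD, n = 3).

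Of 84 tested genes of oxidative phosphorylation, the mitochondrial energy machinery, 46 were called higher and 0 lower in the first fit. The kept genes were 3 (3.57%, beside 3.21% of all genes tested), with a median of 0.60 (0.40 without the first 3-month library). Without the first 3-month library the calls were 3 higher, and with total-count scaling they were 16. The kept members were Ndufb8 and Ndufa6, subunits of complex I, and Cox6c, of cytochrome oxidase. Ndufb8 had 42.6, 48.1 and 55.5 CPM at 3 months and 69.9, 68.4 and 70.6 CPM at 20 months, Cox6c had 71.4, 92.2 and 100 and 123, 130.5 and 142 CPM in the same order, and Ndufa6 77.5, 84 and 95.2 and 113, 116 and 123 CPM. All 3 rose without overlap by 0.76, 0.83 and 0.71 on the log2 scale, and without the second 20-month library their adjusted p-values were 0.0549, 0.057 and 0.059. In the joint fit the differences were 0.43, 0.46 and 0.39, with adjusted p-values of 0.0814, 0.0812 and 0.11. Mitochondrial ribosomal proteins had 36 of 77 called higher and 0 lower, and 0 kept, with a median of 0.48 (0.38 without the first 3-month library). Mrpl12 averaged 71.3 ± 10.8 CPM at 3 months and 92.7 ± 11.1 at 20 months, and Mrpl15 44.1 ± 9.0 CPM at 3 months and 58.2 ± 6.05 at 20 months. The proteasome had 10 of 38 called higher and 0 kept. Psmd2 averaged 183 ± 10.8 CPM at 3 months and 193 ± 9.41 at 20 months, and Psmb4 146 ± 7.25 CPM at 3 months and 148 ± 25.5 at 20 months.

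**Figure D2:**
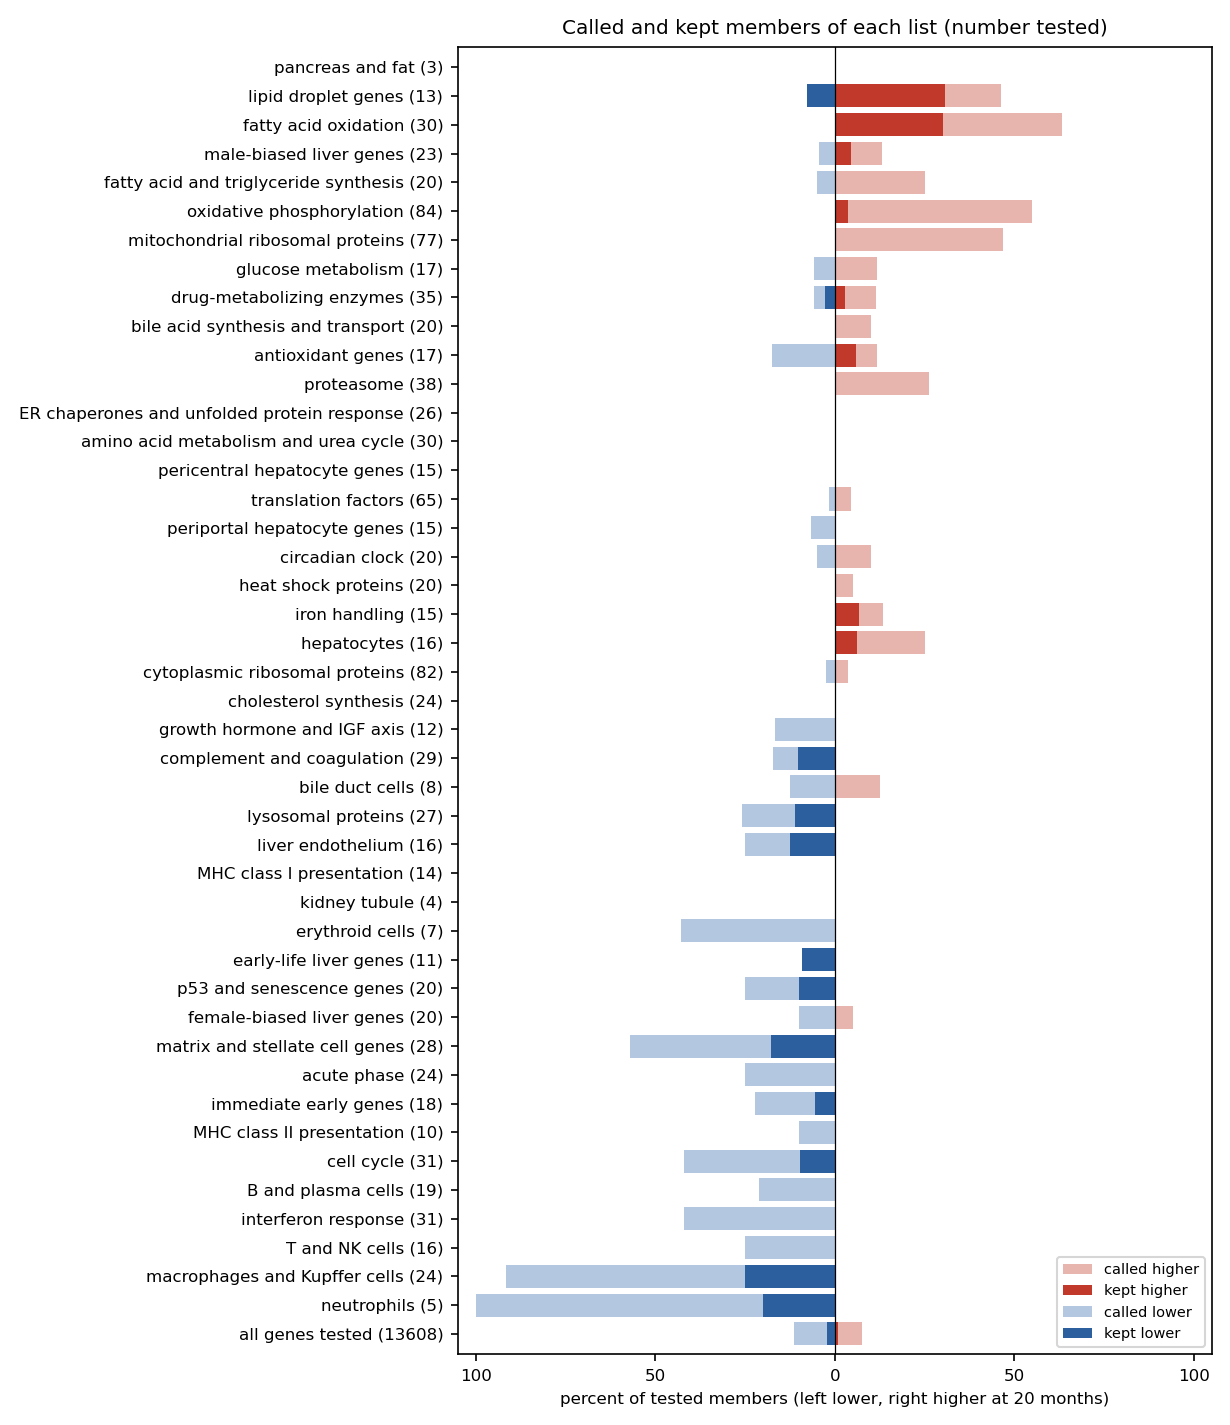
Percent of tested members of each of 44 gene lists that were called (pale) or kept (dark), with genes lower at 20 months to the left and higher to the right, ordered by the list's median log2 difference, with all genes tested at the bottom. Fatty acid oxidation has the longest bar to the right, with 19 of 30 called, and neutrophil and macrophage markers the longest to the left.

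The largest rise of a named gene was Mup17, a major urinary protein secreted by hepatocytes under the control of pulsed growth hormone and androgens, with 4.73, 6.5 and 14.7 CPM at 3 months and 143, 438 and 279 CPM at 20 months. Every 20-month library was far above every 3-month library, and the log2 difference of 5.28 ± 0.95 (SE, adjusted p = 0.00556) was 4.92 without the first 3-month library. Mup genes are a cluster of near-identical copies, so the share of reads given to Mup17 and to the kept pseudogene Mup-ps14 is uncertain. The male-biased liver genes as a list had 3 of 23 called higher, 1 lower and 1 kept, and the female-biased genes 1 of 20 higher, 2 lower and 0 kept. The called genes were 17.4% and 15% of these lists, beside 18.8% of all genes tested. Prlr, the prolactin receptor, averaged 152 ± 53 CPM at 3 months and 111 ± 35.1 at 20 months, and Acot4 50.1 ± 12.5 CPM at 3 months and 71.1 ± 22.5 at 20 months. Hamp2, a copy of the hepcidin gene whose product limits iron export, had 0.733, 2.64 and 1.9 CPM at 3 months and 18.7, 6.47 and 8.89 CPM at 20 months at a log2 difference of 2.87 ± 0.60 (SE, adjusted p = 0.00805). The groups did not overlap, but Hamp and Hamp2 share sequence and their split is uncertain, and in the joint fit the difference was 2.32 (adjusted p = 0.0657). It was the 1 kept gene of 15 tested for iron handling, of which 2 were called higher (13.3%, beside 7.45% of all genes tested).

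Hepatocyte markers as a set showed no common direction, with 4 of 16 called higher and 0 lower, a median of 0.04 (−0.11 without the first 3-month library), and a summed level of 102594 to 156929 CPM at 3 months and 123752 to 148009 CPM at 20 months. Apoa2, an apolipoprotein of HDL, was the kept member at 1721, 2781 and 3496 CPM at 3 months and 5127, 5151 and 4704 CPM at 20 months, with all 20-month values above all 3-month values. Onecut1, a transcription factor of hepatocytes, had 6.13, 4.61 and 2.2 CPM at 3 months and 31.5, 16.1 and 23.5 CPM at 20 months and a log2 difference of 2.76 ± 0.58 (SE, adjusted p = 0.00805). Its lowest 20-month value was above its highest 3-month value. Tymp, thymidine phosphorylase, had 3.0, 8.1 and 7.84 CPM at 3 months and 26, 30.1 and 32.2 CPM at 20 months. Cyp2a22, a cytochrome P450 with close relatives in its cluster, had 1.53, 3.49 and 1.01 CPM at 3 months and 8.91, 4.36 and 10.8 CPM at 20 months. Both were apart between groups, with differences of 2.43 and 2.17, and in the joint fit their adjusted p-values were 0.0612 and 0.0715. The remaining large rises were Gprc5b, an orphan receptor (2.5), Tpm2, a tropomyosin (2.25), and Sema5b, a semaphorin (2.13), each between 1 and 18 CPM in the 6 libraries with no overlap.

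Kept genes made up 5.71% of drug-metabolizing enzymes and 5.88% of antioxidant genes, beside 3.21% of all genes tested. Aox1, an aldehyde oxidase, had 68.6, 82.4 and 91.3 CPM at 3 months and 158, 134 and 138 CPM at 20 months and rose by 1.07, while Cyp2c70, which makes muricholic acids in mouse liver, had 652, 787 and 628 CPM at 3 months and 322, 249 and 224 CPM at 20 months and fell by 1.11 on the log2 scale. They were the kept members among 35 drug-metabolizing enzymes, of which 4 were called higher and 2 lower. Gclc, the catalytic subunit that starts glutathione synthesis, had 143, 181 and 176 CPM at 3 months and 250, 280.2 and 305 CPM at 20 months and rose by 0.99, with 2 of 17 antioxidant genes called higher and 3 lower. All 3 genes were apart between the groups. In the joint fit Aox1 had a difference of 0.72 (adjusted p = 0.0968) and Gclc of 0.64 (0.0675).

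Macrophage genes fell. Of 24 macrophage and Kupffer cell markers, all tested, 22 were called lower and 0 higher, 6 were kept (Trem2, Gpnmb, Lyz2, Lgals3, Cybb and Vsig4), and the median was −2.0 (−1.18 without the first 3-month library). Without the first 3-month library 6 were called lower. The summed level of the list was 8048, 3101 and 1034 CPM in the 3 libraries at 3 months and 951, 556 and 822 CPM at 20 months, against 730 to 1665 CPM in the 12 libraries of other ages. The third 3-month library thus lay close to the 20-month libraries and within the range of the other ages. None of the 24 markers was at 0 in all 6 libraries.

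Trem2, a lipid-sensing receptor of macrophages (chromosome 17, 48346401 to 48352276), had 31.4, 11.7 and 2.38 CPM at 3 months and 0.0567, 0.32 and 0.25 CPM at 20 months. The 3-month values spanned more than 10-fold yet all exceeded those at 20 months, with a log2 difference of −5.78 ± 0.79 (SE, adjusted p = 0.00305) and −4.88 without the first 3-month library. Gpnmb, a glycoprotein of lipid-laden macrophages, had 4.46, 15.8 and 10.6 CPM at 3 months and 0.454, 0.32 and 0.25 CPM at 20 months. Here the first 3-month library was the lowest of its group, and the difference was −4.59, or −4.98 without it. Lyz2, the lysozyme of myeloid cells, had 679, 413 and 122 CPM at 3 months and 65.4, 46.9 and 75.6 CPM at 20 months. Lgals3, galectin 3, had 48.4, 24.3 and 9.56 CPM at 3 months and 4.99, 2.69 and 3.51 CPM at 20 months. Both fell without overlap, by 2.34 and 2.5 on the log2 scale. Other large falls were Ccr2, the chemokine receptor of recruited monocytes (−4.05), and Ms4a7, a membrane protein of macrophages (−3.83), with 29.6, 7.99 and 1.72 and 25.3, 6.54 and 2.08 CPM at 3 months and no value above 1.13 CPM at 20 months.

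The 5 neutrophil markers that could be tested, of 11 listed, were all called lower, and 1 was kept. S100a8, a calcium-binding protein of neutrophils, had 28.1, 3.19 and 0.594 CPM at 3 months and 0.113, 0.0641 and 0.25 CPM at 20 months, a log2 difference of −5.85 ± 1.12 (SE, adjusted p = 0.00699), and −3.66 without the first 3-month library. Pf4, Ppbp, Thbs1 and Cxcl13 belong to no list named here and were among the 12 largest falls of genes above 5 CPM. Pf4, a chemokine stored in platelets, had 61.2, 12.6 and 1.66 CPM at 3 months and 0.397, 0.128 and 0.501 CPM at 20 months, and Ppbp, another platelet chemokine, had 55, 4.68 and 3.39 CPM at 3 months and 0.681, 0.32 and 1.13 CPM at 20 months. Thbs1, thrombospondin 1, had 89.1, 10.8 and 6.53 CPM at 3 months and 1.82, 0.897 and 2.5 CPM at 20 months. All of these were highest in the first 3-month library and none overlapped the 20-month values. The differences of −4.53 for Ppbp and −3.97 for Thbs1 became −2.44 and −2.21 without that library, and that of Pf4 went from −5.81 to −4.23. Cxcl13, which attracts B cells (chromosome 5, 95956939 to 95961068), had 436, 33.8 and 1.25 CPM at 3 months and 1.02, 0.641 and 0.626 CPM at 20 months. The third of its 3-month values was barely above the highest 20-month value, and the difference of −7.12 became −4.22 without the first 3-month library.

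The 250 bases before the starts of Lyz2 (chr10:117282273-117282522, minus strand) and Pf4 (chr5:90772185-90772434, plus strand), both from RefSeq on GRCm38.p6, are printed as 2 falling myeloid and platelet genes whose promoters hold AGGAAGT, the core bound by the myeloid factor PU.1 and by other factors of its family. Capitals mark the match, on the minus strand, 100 bases before the start of Lyz2 and 10 before that of Pf4.
Lyz2: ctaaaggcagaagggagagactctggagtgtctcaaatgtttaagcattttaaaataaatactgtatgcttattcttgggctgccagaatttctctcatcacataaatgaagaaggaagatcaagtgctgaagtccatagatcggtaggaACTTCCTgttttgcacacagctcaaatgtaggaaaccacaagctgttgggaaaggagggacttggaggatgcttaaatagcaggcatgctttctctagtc
Pf4: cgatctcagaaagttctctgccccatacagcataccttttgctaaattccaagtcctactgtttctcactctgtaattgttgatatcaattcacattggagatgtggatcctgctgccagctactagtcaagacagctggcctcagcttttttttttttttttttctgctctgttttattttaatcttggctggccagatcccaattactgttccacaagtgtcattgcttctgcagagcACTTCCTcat
AGGAAGT on either strand was present in 38 of the 254 promoters of kept lower genes (15.0%), in 7 of 94 of kept higher genes (7.45%), and in 904 of 10264 promoters of genes tested (8.81%). These shares are descriptions of short windows, and binding was not measured.

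Lymphocyte markers did not give kept genes. Calls of a lower level numbered 4 among 19 markers of B and plasma cells and 4 among 16 markers of T and NK cells, with 0 kept and 0 called without the first 3-month library in either list. Those calls were 21.1% and 25% of the lists, beside 11.3% of all genes tested. Ighm had 805, 136 and 24.1 CPM at 3 months and 35.6, 101 and 116 CPM at 20 months, with overlapping groups and an adjusted p of 0.256. Igkc, the kappa light chain, had 292, 83.2 and 12.7 CPM at 3 months and 7.15, 40.7 and 48.8 CPM at 20 months, also overlapping. Cd4 had 59.8, 7.43 and 0.356 CPM at 3 months and 0.794, 0.705 and 0.877 CPM at 20 months, called in the first fit (adjusted p = 0.0136) but not without the first 3-month library (adjusted p = 0.134). Il2rb, a cytokine receptor chain of T and NK cells, had 13.9, 6.65 and 1.43 CPM at 3 months and 4.2, 1.03 and 2.63 CPM at 20 months, with overlapping groups.

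**Figure D3:**
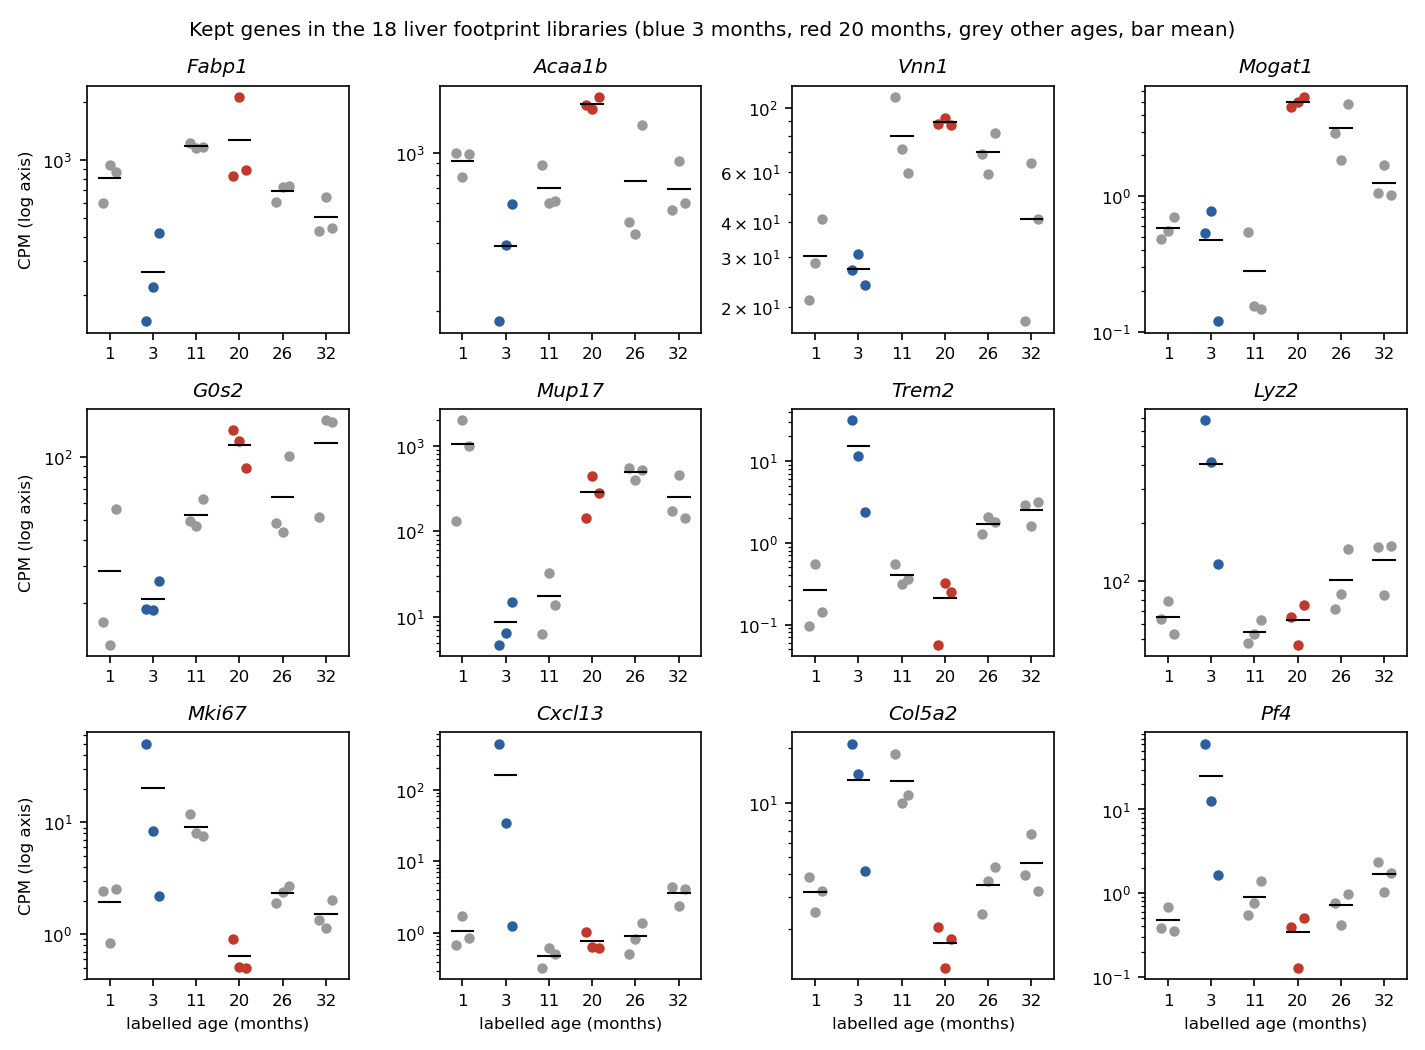
CPM on a log axis in each of the 18 liver footprint libraries for 12 kept genes, by labelled age, with 3 months in blue, 20 months in red, other ages in grey and the mean of each age as a bar. Vnn1 has tight and separate groups, while Trem2, Mki67, Cxcl13 and Pf4 spread widely at 3 months.

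Of 31 cell cycle genes, 13 were called lower and 0 higher, 3 were called lower without the first 3-month library, 3 were kept, and the median was −1.56 (−0.82 without the first 3-month library). Mki67, a marker of cycling cells, had 50.6, 8.36 and 2.2 CPM at 3 months and 0.908, 0.513 and 0.501 CPM at 20 months, with a log2 difference of −4.46 ± 0.80 (SE, adjusted p = 0.00556) and −2.77 without the first 3-month library. Top2a, which untangles DNA at mitosis, had 36.2, 11.2 and 2.02 CPM at 3 months and 1.19, 0.32 and 1.88 CPM at 20 months, and Ccna2, a cyclin of S phase and mitosis, 12.6, 4.09 and 0.772 and 0.51, 0.384 and 0.376 CPM. In each the first 3-month library was the highest and the third the lowest of its group, with no overlap. Of 20 tested p53 and senescence genes, 5 were called lower and 2 kept. These were Cxcl1, a neutrophil-attracting chemokine, with 16.2, 25.1 and 4.63 CPM at 3 months and 2.04, 1.22 and 1.88 CPM at 20 months, and Mmp12, a macrophage elastase, with 2.13, 4.53 and 4.93 CPM at 3 months and 0.227, 0.384 and 0.626 CPM at 20 months. Neither overlapped, and neither was highest in the first 3-month library. Both are secreted proteins, and Cdkn1a, the cell cycle inhibitor p21, was called lower but not kept.

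Genes of the matrix and its cells fell in part. Of 28 tested matrix and stellate cell genes, 16 were called lower and 0 higher, 5 were kept (Col5a2, Col1a1, Vim, Timp2 and Lum), and the median was −0.86 (−0.57 without the first 3-month library). Col5a2, a fibrillar collagen chain, had 21.2, 14.4 and 4.16 CPM at 3 months and 2.04, 1.22 and 1.75 CPM at 20 months. Vim, the intermediate filament of mesenchymal cells and leukocytes, had 154, 67.8 and 51.7 CPM at 3 months and 18.5, 16 and 20.8 CPM at 20 months. Both fell without overlap, by 2.63 and 1.97 on the log2 scale. Timp2, an inhibitor of matrix proteases, had 98.7, 38.3 and 35.4 CPM at 3 months and 19.2, 15.6 and 14.4 CPM at 20 months, and Lum, a collagen-binding proteoglycan, 30.4, 11.8 and 13.3 and 4.93, 4.68 and 6.26 CPM in the same order. These were apart as well. Among 16 endothelial markers 4 were called lower (25%, beside 11.3% of all genes tested) and 2 kept (12.5%, beside 3.21%). Vwf, the clotting factor of endothelium and platelets, had 86.7, 37.8 and 28.7 CPM at 3 months and 21, 14.4 and 17.5 CPM at 20 months, and Flt1, a VEGF receptor, 35.3, 31 and 32.4 and 20.6, 15.1 and 20.2 CPM. Flt1 had the steadier 3-month group, and neither overlapped. The difference of −1.19 for Vwf became −0.75 without the first 3-month library, and that of Flt1 went from −0.56 to −0.62.

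Lysosomal proteins had 7 of 27 called lower (25.9%, beside 11.3% of all genes tested) and 0 higher, with 3 kept (11.1%, beside 3.21%). Cd63, a membrane protein of late endosomes, had 19.3, 12.7 and 7.19 CPM at 3 months and 3.23, 2.63 and 3.26 CPM at 20 months. Asah1, acid ceramidase, had 118, 71.6 and 48.5 CPM at 3 months and 35.1, 33.2 and 42.2 CPM at 20 months. Both were apart and highest in the first 3-month library. Klf6, the 1 kept immediate early gene of 18 tested (4 called lower), had 78.2, 30.9 and 14.5 CPM at 3 months and 8.51, 5.51 and 8.64 CPM at 20 months, also apart.

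Beside these falls, the summed level of the macrophage markers, the neutrophil markers (3.45 to 193 CPM at 3 months and 2.11 to 3.63 CPM at 20 months) and the B and plasma cell markers (54 to 1328 CPM at 3 months and 56.4 to 204 CPM at 20 months) was highest in the first 3-month library, and the share of leukocytes in the other falls was not tested. Markers of kidney tubule summed to 1.87 to 5.79 CPM at 3 months and 1.64 to 2.95 CPM at 20 months. Lrp2, a receptor of the kidney tubule, averaged 1.61 ± 0.543 CPM at 3 months and 1.49 ± 0.611 at 20 months, and Kap 0.567 ± 0.526 CPM at 3 months and 0.272 ± 0.417 at 20 months. In the first fit, which applies the TMM factors, the log2 difference of Lrp2 was 0.19. The pancreas and fat markers summed to 179 to 2599 CPM at 3 months and 2934 to 4191 CPM at 20 months, of which Car3, a carbonic anhydrase also abundant in hepatocytes, made up nearly all, with 168, 766 and 2588 CPM at 3 months and 3215, 2916 and 4175 CPM at 20 months (adjusted p = 0.0947). Cela1 averaged 8.67 ± 2.44 CPM at 3 months and 11.7 ± 1.86 at 20 months. The lists of kidney tubule and of pancreas and fat had 0 genes called. Erythroid markers had 3 of 7 called lower and 0 kept, with Hbb-bs at 192 ± 37.8 CPM at 3 months and 111 ± 0.743 at 20 months and Alas2 at 96.5 ± 48.2 CPM at 3 months and 147 ± 5.95 at 20 months. Bile duct markers had 1 of 8 called higher and 1 lower, with 0 kept. Spp1 averaged 39.7 ± 44.3 CPM at 3 months and 8.54 ± 3.55 at 20 months, and Cd24a 13 ± 16.8 CPM at 3 months and 1.38 ± 0.364 at 20 months.

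Of 29 complement and coagulation genes, 5 were called lower and 0 higher, which is 17.2% called beside 18.8% of all genes tested, and 3 were kept. Hc, complement component 5, had 1437, 1789 and 1303 CPM at 3 months and 665, 527 and 723 CPM at 20 months, and C8a, of the membrane attack complex, 699.6, 1008 and 844 and 421, 411 and 416 CPM. Pros1, protein S, had 234, 157 and 80 CPM at 3 months and 68.6, 43.1 and 58.5 CPM at 20 months. The groups did not overlap for any of the 3. Hc and C8a were highest in the second 3-month library, and their differences of −0.98 and −0.78 became −1.12 and −0.99 without the first. C8a was not called without 20-month library 1, 2 or 3 (adjusted p = 0.0973, 0.0918 and 0.106) nor without 3-month library 2 or 3 (0.128 and 0.0555) nor without the 32-month libraries (0.0512), and Hc and Pros1 were not called without the second 20-month library (0.0681 and 0.0503). Slc13a5, the citrate carrier of hepatocytes, had 14.9, 12 and 2.14 CPM at 3 months and 0.397, 0.32 and 0.376 CPM at 20 months, a log2 difference of −4.34 ± 0.92 (SE, adjusted p = 0.00825), with every 20-month value under 0.4 CPM. Without the second 20-month library its adjusted p was 0.0507.

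The steepest fall of a named gene was Lrtm2, a leucine-rich repeat membrane protein (chromosome 6, 119315133 to 119332270), with 18.1, 13.4 and 0.178 CPM at 3 months and 0.0567, 0 and 0 CPM at 20 months. It was abundant in the first and second 3-month libraries, near 0 in the third, and had 1 count in all 20-month libraries together against 636 at 3 months. The ratio of the groups' counts per depth was 0.00224, with an exact 95% interval of 5.67e-05 to 0.0125 that covers counting error only. H19 had 1.93, 1.56 and 0.713 CPM at 3 months and 0.0567, 0.0641 and 0.25 CPM at 20 months and was the 1 kept member of 11 tested early-life genes, with no overlap.

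Immune and stress lists without a kept gene were as follows. Interferon response genes had 13 of 31 called lower and 0 called without the first 3-month library, with a median of −1.62 (−0.84 without the first 3-month library). Ifi27 averaged 147 ± 60.2 CPM at 3 months and 66.3 ± 20.5 at 20 months, and Bst2, tetherin, 106 ± 27.5 CPM at 3 months and 89.1 ± 4.94 at 20 months. Acute phase genes had 6 of 24 called lower and 0 without that library. Hpx, hemopexin, averaged 8047 ± 3218 CPM at 3 months and 3275 ± 864 at 20 months, and Fga, a fibrinogen chain, 4727 ± 1745 CPM at 3 months and 2876 ± 322 at 20 months. Class II antigen presentation had 1 of 10 called lower and class I 0 of 14. Cd74, the class II invariant chain, averaged 316 ± 206 CPM at 3 months and 101 ± 47.2 at 20 months, H2-Aa 109 ± 71.1 CPM at 3 months and 42.7 ± 24.3 at 20 months, H2-K1 1588 ± 288 CPM at 3 months and 1302 ± 435 at 20 months and B2m 1285 ± 181 CPM at 3 months and 1115 ± 140.4 at 20 months. ER chaperones had 0 of 26 called, and heat shock proteins 1 of 20 called higher. P4hb averaged 1400 ± 129 CPM at 3 months and 1547 ± 229 at 20 months, Calr 565 ± 64.7 CPM at 3 months and 656 ± 84.4 at 20 months, Hsp90ab1 906 ± 160.4 CPM at 3 months and 777 ± 98.5 at 20 months and Hspa8 711 ± 178 CPM at 3 months and 492 ± 76.8 at 20 months. A p that missed the threshold does not show that these levels were alike. Bst2, B2m and Hsp90ab1 had lower CPM means at 20 months. Their log2 differences in the first fit, which applies the TMM factors, were 0.05, 0.05 and 0.07.

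Metabolic and housekeeping lists without a kept gene were bile acid genes (2 of 20 called higher), glucose metabolism (2 of 17 higher, 1 lower), amino acid metabolism and the urea cycle (0 of 30), clock genes (2 of 20 higher, 1 lower), the growth hormone and IGF axis (2 of 12 lower), and pericentral (0 of 15) and periportal (1 of 15 lower) hepatocyte genes. Slc27a5, a bile acid CoA ligase, averaged 1335 ± 319 CPM at 3 months and 1304 ± 276 at 20 months, and Abcc2, a canalicular exporter, 1013 ± 130.3 CPM at 3 months and 977 ± 149 at 20 months. Pck1, which controls gluconeogenesis, averaged 5303 ± 1308 CPM at 3 months and 2850.1 ± 563 at 20 months. Cps1, the first enzyme of the urea cycle, averaged 6733 ± 1560.2 CPM at 3 months and 5155 ± 1199 at 20 months, and Mat1a, which makes the methyl donor SAM, 4983 ± 1377 CPM at 3 months and 3202 ± 689 at 20 months. Tef averaged 243 ± 53.4 CPM at 3 months and 262 ± 59.5 at 20 months and Bhlhe40 142 ± 23.3 CPM at 3 months and 138 ± 16.4 at 20 months, both clock-linked transcription factors. Igf1 averaged 795 ± 165 CPM at 3 months and 496 ± 162 at 20 months, and its binding protein Igfbp4 2362 ± 266 CPM at 3 months and 2053 ± 315 at 20 months. Of the zonated genes, Cyp2e1 averaged 6469 ± 1701 CPM at 3 months and 7804 ± 1359.9 at 20 months and Aldh1a1 1097 ± 127 CPM at 3 months and 1588 ± 309 at 20 months. Cytoplasmic ribosomal proteins had 3 of 82 called higher and 2 lower, with a median of −0.03, and translation factors 3 of 65 higher and 1 lower. With total-count scaling 23 of the 82 ribosomal proteins were called lower. Rplp1 averaged 372 ± 31.2 CPM at 3 months and 319 ± 69.1 at 20 months, Rpl4 376 ± 69 CPM at 3 months and 259 ± 30.2 at 20 months, Eef1a1 2268 ± 189 CPM at 3 months and 1919 ± 87.8 at 20 months and Eef2 2116 ± 168 CPM at 3 months and 1731 ± 191 at 20 months. Some genes with lower CPM means at 20 months had positive log2 differences in the first fit, which applies the TMM factors. These were Slc27a5 (0.19), Abcc2 (0.19), Bhlhe40 (0.21), Igfbp4 (0.04), Rplp1 (0.04) and Eef1a1 (0.04).

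The 12 libraries of other labelled ages show on which side the kept genes stood apart. For each kept gene, log2(CPM + 1) was set against its mean over those 12, and the median was taken over the genes. For the 318 genes that fell, the 3-month libraries were at 2.21, 1.17 and 0.18, the 20-month libraries at −0.40, −0.72 and −0.42, and the other ages between −0.30 and 0.36. The first and second 3-month libraries lay far above all others, and the third lay within the range of the other ages. On this CPM scale the 3 at 20 months lay below every other library. These CPM lack the TMM factors, which were 0.932, 0.822 and 0.993 for the 20-month libraries. The factor was 1.06 for the third 1-month library, the one at −0.30, so the order of the closest libraries may depend on the scaling. For the 119 genes that rose, the 3-month libraries were at −0.46, −0.30 and −0.33, the 20-month libraries at 0.35, 0.27 and 0.37, and the other ages between −0.22 and 0.18. Here both groups stood outside the range of the other ages, by similar amounts. These placements are descriptions, since the genes were selected on the same 6 libraries.

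**Figure D4:**
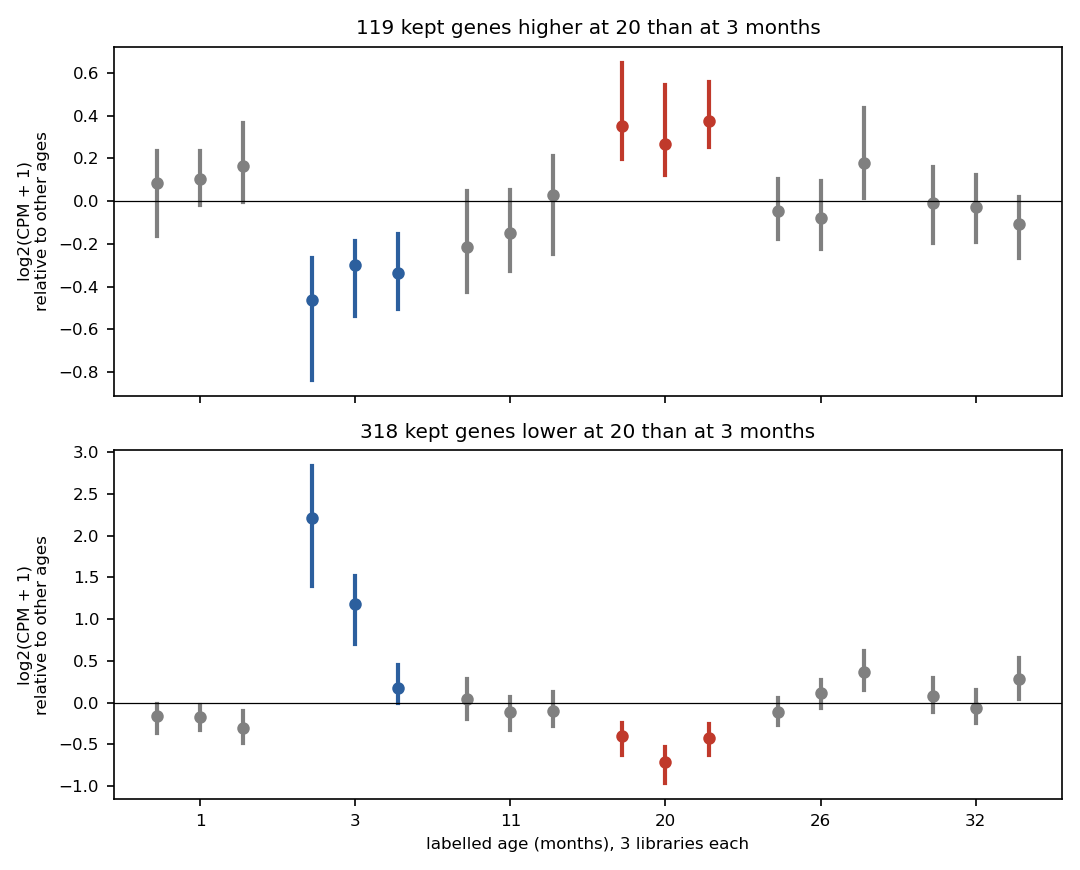
Median (point) and interquartile range (line) over the kept genes of log2(CPM + 1) relative to the mean of the 12 libraries of other ages, for each of the 18 liver footprint libraries, with 3 months in blue and 20 months in red. In the lower panel the 3-month libraries descend from 2.21 to 0.18, and in the upper panel all 3 lie between −0.46 and −0.30.

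Single genes showed different patterns across labelled ages. Mup17 ranged from 130.1 to 1968 CPM over the 3 libraries at 1 month and stayed between 6.32 and 32.8 CPM at 11 months, so low levels were seen at both 3 and 11 months. Mogat1 was between 0.146 and 0.545 CPM at 11 months and between 1.85 and 4.78 CPM at 26 months. Vnn1 had 109, 72 and 59.1 CPM at 11 months, a range that includes its 20-month values. Hamp2 had 74.4, 51.6 and 115 CPM at 11 months and Cyp2a22 had 45.8, 34.6 and 28.4 CPM, all above their 20-month values. Trem2 had 0.0972, 0.552 and 0.141 CPM at 1 month and 2.88, 1.6 and 3.14 CPM at 32 months, so only the first and second 3-month libraries were above the 32-month range. Mki67 had 12, 7.97 and 7.58 CPM at 11 months, above the 3-month library 3 at 2.2.

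The rule for keeping a gene has a threshold, and values lie on both sides of it without a gap. Just inside were Axl, a receptor of macrophages, and Pola1, a DNA polymerase subunit, each with a highest adjusted p of 0.0499 over the 3 fits (0.0513 and 0.0522 without the second 20-month library). Just outside were Acsm2, an acyl-CoA synthetase, and Bub1b, a mitotic checkpoint kinase, each with 0.0501.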

How the data were processed

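The deposited values are whole-number counts per gene, unscaled. The submitters' processing notes name cutadapt 1.14, STAR 2.5.3 and mm10, while the counter and annotation are not given in the sources used here. Of 50222 identifiers, 49998 were matched to a symbol. The 18 liver footprint libraries were fitted together by labelled age (filterByExpr, minimum count 10; TMM; edgeR 4.0.16 robust quasi-likelihood test, R 4.3.3; adjusted p under 0.05, two-sided), leaving 12 residual degrees of freedom. One spread per gene was shared by all labelled ages. The p-value of a gene that varied more at 3 months than elsewhere was therefore set partly by the tighter ages. SE was derived from the test as the size of the log2 difference over the root of F. CPM uses total counts, so it lacks the TMM factors (1.30 for the first 3-month library, 0.822 for the second 20-month library). The series text gives 3 animals per age (2 at 32 months, for 3 libraries) and not the animal of a library, so p-values measure spread between libraries. An exact permutation test of 3 against 3 cannot go below 0.1. Promoters and coordinates are from RefSeq, GRCm38.p6.

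Members and the 44 gene lists were chosen with earlier results of these data known, and the motifs and printed promoters after seeing values. Named genes were, among kept genes of at least 5 CPM whose groups did not overlap, the 12 highest and 12 lowest differences (no predicted models); for each list, up to 4 kept members of smallest adjusted p, or 2 of the highest level where none was kept; and Alb, Kap, H19 and Ighm. A few genes that this rule picks are not reported here. Other genes named were chosen after their values were seen. The fit was checked on simulated counts. Alternatives were DESeq2 1.42.0, RLE and total-count scaling, no filter, a minimum count of 50, the 6 libraries alone, a replicate block, leaving out each library and, chosen after seeing the data, leaving out the 32-month libraries.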

Additional observations from a re-analysis of the deposited data

How the results depend on the processing

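Settings moved both the number of calls and the share of them that was higher at 20 months. Of the calls, 39.6% were higher in the first fit, 9.75% with total-count scaling and 66.7% in the 6 libraries alone. DESeq2 called 3111, RLE scaling 2469, a minimum count of 50 called 1932, no filter 2065 and the replicate block 2066, and of the kept genes 437, 437, 363, 435 and 434 were called there. The minimum of 50 removed genes from the test. The 6 libraries fitted alone, with 4 residual degrees of freedom in place of 12, called 15 genes (10 higher, 5 lower; 3474 at an unadjusted p under 0.05), 9 of them kept. These 9 were Onecut1, G0s2, Gprc5b, Vnn1, Clstn3, Dio1, Fabp2, Acmsd and Fmn1. The first 4 of these, all rises, were the only ones among the 57 kept genes that the naming rule picks. No fall picked by that rule was called there. Leaving out both the first 3-month library and TMM scaling called 537 genes (58 of them, or 10.8%, higher), 374 of them kept. All kept genes lost there were rises. Of the 57 kept genes that the naming rule picks, Hamp2, G0s2, Tymp, Cyp2a22, Etfdh, Aox1, Gclc, Ndufb8, Cox6c and Ndufa6 were not called there (adjusted p from 0.0535 to 0.11). Leaving out the 32-month libraries, which share an animal, was chosen after seeing the data. It called 2508 genes, 433 of them kept, and not C8a (0.0512). Leaving out 1 library at a time gave 370 to 4132 calls, the lowest without the second 20-month library and the highest without the third of the 3-month libraries, and 314 to 437 of the kept genes. Of the 57, 12 were not called without the second 20-month library (Apoa2, C8a, Cox6c, Cyp2c70, Flt1, H19, Hc, Mmp12, Ndufa6, Ndufb8, Pros1 and Slc13a5, adjusted p from 0.0503 to 0.0918), and C8a was lost without any 1 of the 6 libraries except the first 3-month one. Mmp12 was also lost without the first 20-month library (0.0569) and Cyp2c70 without the last one (0.0551). Genes named in the text that were not called in the first fit were called without the last 3-month library (Alas2, Aldh1a1, Car3, Cd74, H2-Aa, Hpx, Ifi27, Il2rb and Spp1), with total-count scaling (Cd74, Hbb-bs, Hpx, Ifi27, Mat1a, Rpl4 and Spp1) or by DESeq2 (Aldh1a1, Car3, Cd74, Hpx, Ifi27 and Spp1, adjusted p from 0.0297 to 0.0445). Spp1 was also called at a minimum count of 50 (0.0491) and without the second 3-month library (0.0476), Aldh1a1 with no filter (0.0498), Ifi27 without the 32-month libraries (0.0495), and Hbb-bs with both the first 3-month library and TMM scaling left out (0.0441). The cause was not tested. After removal of each group's mean, same-numbered 3- and 20-month libraries correlated at 0.0731, −0.0325 and −0.0368. Pairs of unlike number ran from −0.114 to 0.135. With 3 libraries per group these values cannot show whether same-numbered libraries shared more than a number.

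Among the genes chosen by the naming rule, signs changed for those that were not called, in every case without a call in the new direction. With total-count scaling these were Lrp2 −0.076, B2m −0.21, Bst2 −0.26, Slc27a5 −0.034, Abcc2 −0.054, Hsp90ab1 −0.22, Bhlhe40 −0.041, Igfbp4 −0.20, Rplp1 −0.22, Eef1a1 −0.24. In the 6 libraries alone they were Bst2 −0.0017, Igfbp4 −0.0094, Rplp1 −0.0094, Eef1a1 −0.0055, and at a minimum count of 50 Bst2 −0.0041, Igfbp4 −0.0046, Rplp1 −0.0082, Eef1a1 −0.0055. With total-count scaling and without the first 3-month library they were Ighm 0.064, Lrp2 −0.25, B2m −0.25, Bst2 −0.069, Slc27a5 −0.22, Abcc2 −0.16, Hsp90ab1 −0.073, Tef −0.066, Bhlhe40 −0.13, Igfbp4 −0.29, Rplp1 −0.16, Eef1a1 −0.17, Psmb4 −0.025. The log2 differences over the fits that leave out 1 library were Ighm −2.03 to 0.30, Lrp2 −0.28 to 0.56, H2-K1 −0.32 to 0.13, B2m −0.087 to 0.19, Bst2 −0.079 to 0.12, Prlr −0.37 to 0.14, Slc27a5 −0.075 to 0.39, Abcc2 −0.0080 to 0.33, Cps1 −0.39 to 0.13, Hsp90ab1 −0.027 to 0.23, Igfbp4 −0.15 to 0.18, Rplp1 −0.062 to 0.15, Eef1a1 −0.076 to 0.13, Eef2 −0.11 to 0.062. Depth limits what can be seen of the lowest genes: 1 count in the smallest of the 6 libraries is 0.125 CPM.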

Other observations

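Kept genes outside the lists, chosen after their values were seen, included further members of lipid handling and of blood cells. Among those that rose were Acsl1, which activates long-chain fatty acids (log2 difference of 1.25), Mgll, a monoglyceride lipase (1.31), and Ech1 (1.09) and Hsd17b4 (0.80) of fatty acid oxidation. Pex14 (0.94) and Pex16 (0.92), needed to build peroxisomes, rose as well, as did the hepatocyte transcription factors Cebpa (1.21) and Foxa2 (1.25) and Dio1, the thyroid hormone deiodinase (1.67). Among those that fell were Itgam, an integrin of myeloid cells (−4.44), Cx3cr1, a chemokine receptor of monocytes (−3.29), Ptprc, the pan-leukocyte antigen CD45 (−2.84), and the platelet genes Gp9 (−4.90), Tubb1 (−5.97) and Mpig6b (−6.73). Without the second 20-month library Acsl1 (adjusted p = 0.0516), Hsd17b4 (0.0597), Ptprc (0.0513) and Gp9 (0.0574) were not called, and without the first 3-month library and TMM scaling together neither were Hsd17b4 (0.0721) and Pex16 (0.102). Whether these groups hold more kept genes than other groups was not tested.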
